A study of Homo sapiens with 2 samples.

Results

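The genes described here are the ligands, receptors, secreted antagonists and core signalling genes of the Wnt pathway, measured in CP-A, a non-dysplastic epithelial cell line from Barrett's esophagus immortalized with human telomerase reverse transcriptase. Members were chosen by gene symbol alone: WNT, FZD, DKK and SFRP genes, together with LRP5, LRP6, LGR4, LGR5, RNF43, ZNRF3, AXIN1, AXIN2, CTNNB1, LEF1 and TCF7L2. TCF7 was also sought but was not analysed here. There were 46 members among 17687 genes with a symbol, each read by 1 row of the array. Control cells and cells exposed to pH 6.4 + DCA were each measured on 1 Clariom S human array. The methods describe 3 exposures of 48 h to medium acidified with hydrochloric acid and holding 100 µM deoxycholic acid (DCA), a secondary bile acid, with culture in basal medium between them. Both cultures grew in serum-containing medium with epidermal growth factor, bovine pituitary extract, hydrocortisone and cholera toxin. Nocodazole, an inhibitor of microtubules, was given before RNA extraction for RT-qPCR. The array methods do not say whether the array RNA came from cells given it.

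In canonical Wnt signalling, a secreted Wnt protein binds a Frizzled receptor together with LRP5 or LRP6, which stops the destruction complex around Axin and APC from degrading β-catenin. β-catenin then enters the nucleus and acts with LEF/TCF factors on target genes, several of which, such as AXIN2, RNF43 and ZNRF3, dampen the signal. In the intestine the pathway maintains the stem cells of the crypt, and other branches, through planar cell polarity and calcium, signal without β-catenin.

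Values are log2 expression levels as the authors deposited them, so that a difference of 1 is 2-fold. Every difference is the level after exposure minus the control level. A gene was called higher or lower at 2-fold or more, the threshold in the methods. With 1 array per condition there were no replicates, and no test across samples was possible. The arrays correlated at r = 0.982 across genes, which are not independent replicates, and the median difference of all genes was 0.00, with an SD of 0.59. The table holds no detection calls. A background bound was therefore set on each array at the 95th percentile of 349 olfactory receptor genes, which serve smell in the nasal epithelium, at a log2 level of 5.35 on the control array and 5.42 on the pH 6.4 + DCA array. Of the epithelial markers, 11 of 12, including the keratins KRT8, KRT18 and KRT19, lay above the bound on both arrays, and so did 1 of 6 endothelial and 5 of 8 leukocyte markers, CD3E and CD79A among them, while the leukocyte marker PTPRC and the endothelial markers PECAM1 and CDH5 lay under it on both. A level above the bound is therefore no proof of expression.

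Of the 46 members, 2 differed by 2-fold or more, and both were ligands. WNT5A, best known for signalling without β-catenin, was higher on the pH 6.4 + DCA array, and WNT7B, a ligand of epithelial cells, was lower. The remaining 44 members, including every receptor, antagonist and transduction gene of the set, differed by less than 2-fold. Of all 17687 genes, 2.52% were higher and 4.12% were lower at the same threshold, and the single member in each direction makes 2.17% of 46. Shares this near the background are no result about the pathway as a set. The median difference of the members was -0.0037, with 22 members above 0, 23 below 0 and SFRP1 listed at the same value on both arrays, and their differences ranged from -1.08 to 1.22.

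**Figure D1:**
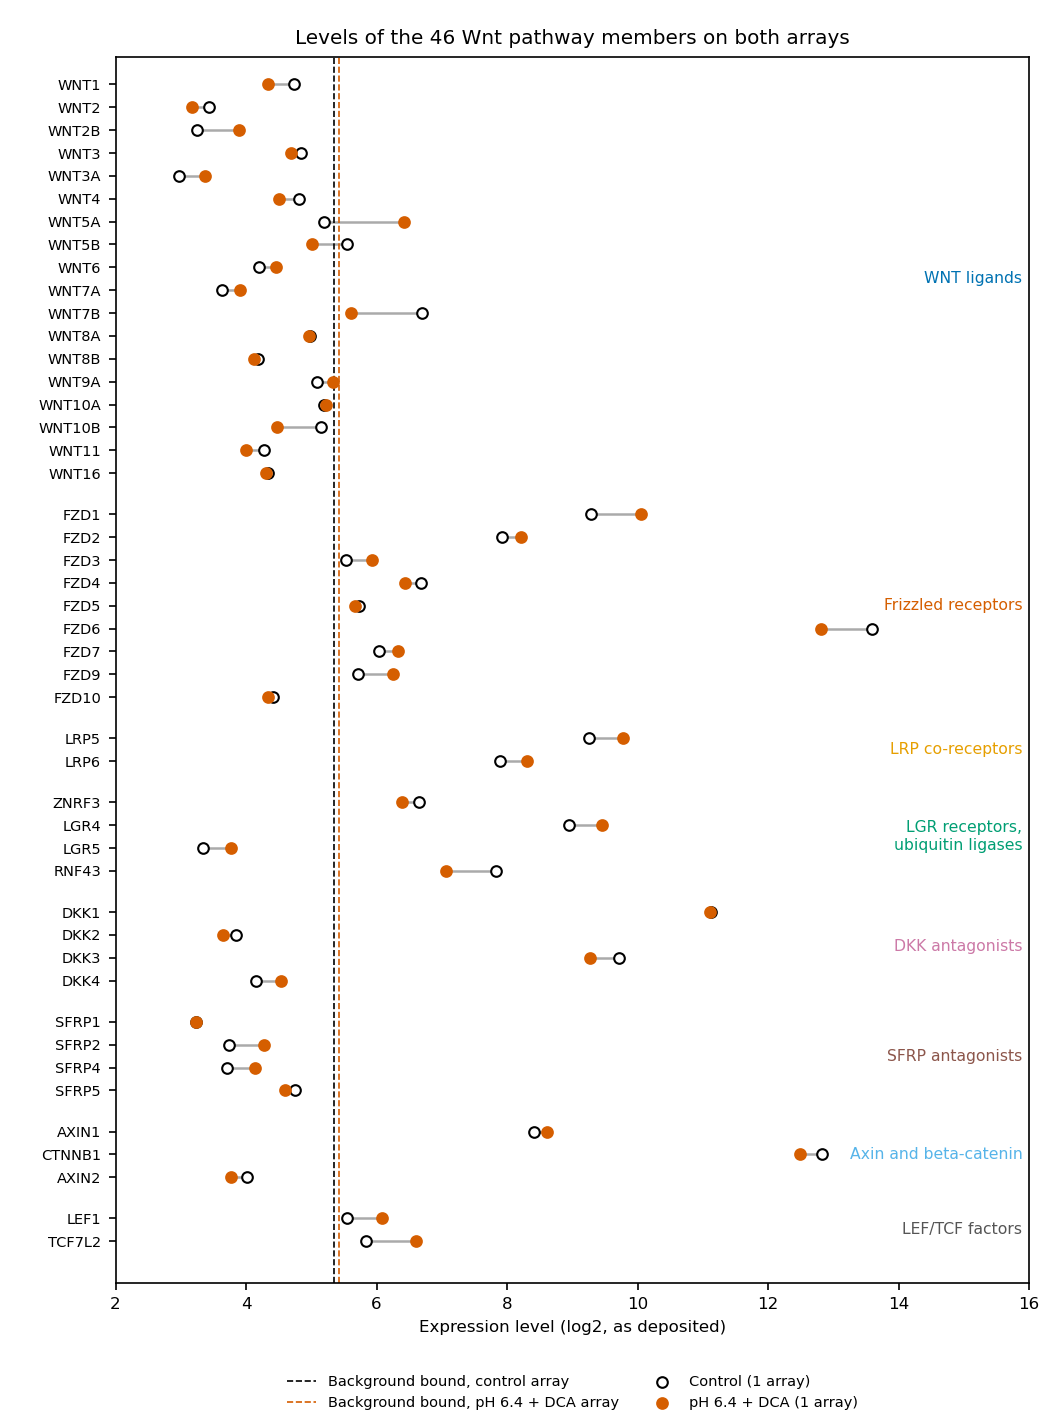
Log2 expression level (x axis) of each of the 46 Wnt pathway members on the control array (open circles) and the pH 6.4 + DCA array (filled circles), 1 array each, with the background bound of each array as a dashed line. Most WNT ligands and all 4 SFRP genes sit left of the bounds, while 8 of 9 Frizzled receptors and both LRP co-receptors sit right of them.

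Above the bound on both arrays lay 20 members, or 43.5%, against 60.9% of all genes. They were WNT7B, all measured Frizzled receptors but FZD10, LRP5 and LRP6, LGR4, RNF43 and ZNRF3, DKK1 and DKK3, AXIN1 and CTNNB1, and LEF1 and TCF7L2. 24 members lay under it on both arrays, and a difference there rests on signal no brighter than that of the brightest olfactory receptor probes. With the bound at the 99th percentile of olfactory receptor genes, 13 members lay above it on both arrays.

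Of 18 WNT ligands measured, 1 was higher, 1 was lower and 16 were neither. WNT5A (TC0300011247.hg.1, chromosome 3) had a log2 level of 5.20 on the control array and 6.42 on the pH 6.4 + DCA array, a difference of 1.22. The control level lay under the background bound, so the ratio is a bound as well, and WNT5A was at least 2.10-fold higher after exposure. WNT5A lay above the bound only on the pH 6.4 + DCA array. Its close relative WNT5B (TC1200006469.hg.1) lay above it only on the control array, by a small margin, at 5.55 against 5.01. That is a difference of -0.54, or at least 1.09-fold lower, short of 2-fold. At the 99th percentile of olfactory receptor genes, WNT5B lay under the bound on both arrays. WNT7B (TC2200008995.hg.1, chromosome 22) went from 6.70 to 5.61, a difference of -1.08, so that 47.2% of the control level was measured after exposure. In cultured cells measured in bulk, fewer cells that express a gene and less of its RNA per cell cannot be told apart. Gene copy number can differ as well. Among chromosomes with members, the paper's array CGH of exposed CP-A cells reported gains of 3 and 10 and losses of 5, 7, 8 and 12. The median differences of the members there, dim ones included, were 0.28, -0.035, -0.013, 0.43, 0.19 and -0.24 in that order. They rest on 3, 4, 1, 5, 4 and 6 members. Each median is set wholly or in part by members under the bound on both arrays. The part of copy number in any member's difference was not tested. The pH 6.4 + DCA level of WNT7B lay above the bound by a small margin. With the bound at the 99th percentile of olfactory receptor genes, 6.23 on the control array and 6.38 on the other, WNT5A was at least 1.14-fold higher and WNT7B at least 1.25-fold lower, so that neither was held to 2-fold. With a constant of 32 added to the linear values, which shrinks differences of dim genes, the differences were 0.77 for WNT5A and -0.75 for WNT7B, both under 2-fold.

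The 15 other WNT ligands lay under the bound on both arrays, with levels between 2.97 and 5.34. WNT3A, the ligand most used to activate β-catenin in culture, went from 2.97 to 3.38, and WNT3, which Paneth cells supply to mouse intestinal stem cells, from 4.84 to 4.69. Neither ligand was detectable above background on either array. The widest differences of these dim ligands were those of WNT10B, from 5.15 to 4.47, and WNT2B, from 3.25 to 3.89. The others, WNT1, WNT2, WNT4, WNT6, WNT7A, WNT8A, WNT8B, WNT9A, WNT10A, WNT11 and WNT16, differed by -0.40 to 0.28.

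WNT5A is also made by fibroblasts, and 9 markers of that cell type were measured. By their deposited levels 2 were higher, 3 were lower and 4 were neither, where 2.52% of all genes were higher and 4.12% lower. Of the 5 called, only DCN and FAP lay above the bound on both arrays. The proteoglycan DCN had a difference of 4.46 and the protease FAP of -1.77. POSTN, at 6.35 and 4.67, and THY1, at 6.10 and 5.10, were under the bound after exposure, and were at least 1.90-fold and at least 1.60-fold lower, short of 2-fold. The collagen gene COL1A1 went from 6.28 to 5.98 and COL1A2 from 8.51 to 8.26. The defining receptors PDGFRA and PDGFRB and the proteoglycan LUM lay under the bound on both arrays. The summed level of the list went from 11.33 to 13.42 on the log2 scale, of which DCN, at 13.29 on the pH 6.4 + DCA array, was the main part. The part of these genes in the difference of WNT5A was not tested.

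The upstream sequence of WNT5A is shown because WNT5A was the 1 member with a higher call. A further reason is that DNA methylation, which falls on CpG dinucleotides, was the subject of the study. The study's main finding on it concerned alpha satellite repeats of the centromere. The paper also measured promoter methylation in CP-A cells. It reported some downregulated genes with no change at the promoter and others with an increase. RefSeq's table for GRCh38.p14 held promoter windows for 30 of the 46 members, 36 windows in all. It gives WNT5A a pair of start sites, both on the minus strand and both inside the full span of the gene, and the 250 bases before each are written 5′ to 3′ with CpG dinucleotides in capitals. The first covers chr3:55487307-55487556 and the second chr3:55481399-55481648.
WNT5A, upstream start: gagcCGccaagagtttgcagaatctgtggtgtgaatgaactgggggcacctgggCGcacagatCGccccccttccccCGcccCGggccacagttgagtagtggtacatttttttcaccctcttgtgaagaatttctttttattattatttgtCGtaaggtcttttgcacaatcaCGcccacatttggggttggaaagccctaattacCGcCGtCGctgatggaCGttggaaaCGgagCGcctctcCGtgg
WNT5A, downstream start: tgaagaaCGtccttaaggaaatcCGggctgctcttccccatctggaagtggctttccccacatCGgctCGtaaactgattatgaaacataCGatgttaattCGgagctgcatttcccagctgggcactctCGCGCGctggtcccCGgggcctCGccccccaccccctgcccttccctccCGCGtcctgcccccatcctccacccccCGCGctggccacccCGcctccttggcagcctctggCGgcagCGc
The windows held 14 and 18 CpG dinucleotides. Over all 35116 windows of the table the median was 11, with quartiles of 3 and 23. The windows of WNT5B held 7 and 10.

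The median over the 36 member windows was 20 CpG dinucleotides, inside the quartiles of all windows. It was 19 over 15 windows of members above the bound on both arrays, which ranged from 0 to 43, and 26 over 17 windows of members under it on both, which ranged from 3 to 44. RNF43 held 0 and 4 at its start sites, and LRP5 held 43. Methylation of these windows was not analysed here.

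**Figure D2:**
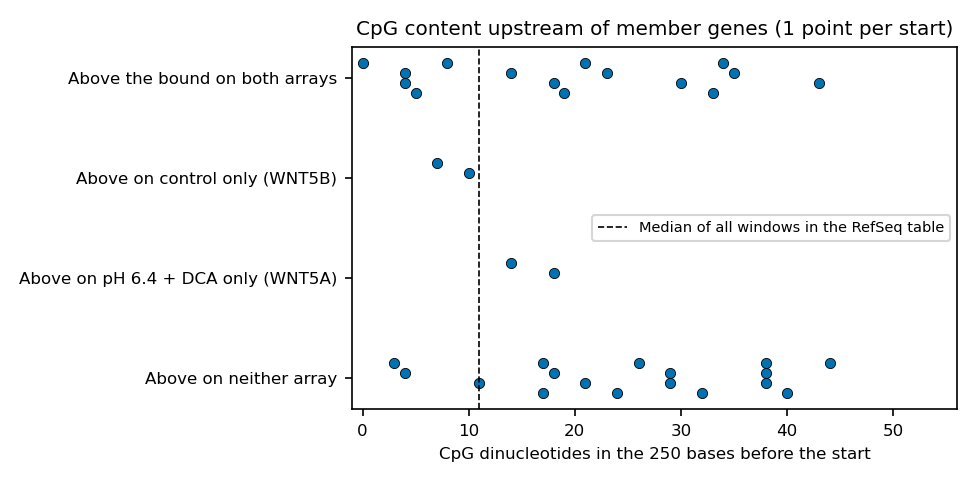
Number of CpG dinucleotides in the 250 bases before each start of a member gene (x axis), by where the level of the gene lay against the background bound, with 1 point per start and the median of all windows as a dashed line at 11. The rows of members above the bound on both arrays and on neither array overlap over nearly their whole range.

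No Frizzled receptor passed 2-fold in either direction. FZD6 (TC0800008478.hg.1, chromosome 8), a receptor known for planar cell polarity in mouse skin, went from 13.60 to 12.81, a difference of -0.79, or 1.73-fold. FZD1 (TC0700008306.hg.1, chromosome 7), which can signal through β-catenin, went from 9.29 to 10.05, a difference of 0.76, or 1.69-fold. These were the widest differences of the family. FZD9 went from 5.72 to 6.25, FZD3 from 5.53 to 5.93, FZD2 from 7.92 to 8.22 and FZD7 from 6.04 to 6.33, with differences of 0.29 to 0.53. FZD4, a receptor of norrin and of Wnt proteins in the retina, went from 6.68 to 6.44, and FZD5 from 5.74 to 5.66. FZD10 lay under the bound on both arrays, at 4.42 and 4.34. With the bound at the 99th percentile of olfactory receptor genes, FZD3, FZD5, FZD7 and FZD9 also lay under it on both arrays. Of 9 receptors, 5 had a difference above 0, and the median was 0.29.

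Neither co-receptor passed 2-fold. LRP5 went from 9.26 to 9.78, a difference of 0.52, and LRP6 from 7.89 to 8.30, a difference of 0.41. The R-spondin receptor LGR4, which protects Frizzled receptors from removal, went from 8.95 to 9.45, a difference of 0.50. Its relative LGR5, the marker of intestinal crypt stem cells, lay under the bound on both arrays, at 3.34 and 3.77. Among the ubiquitin ligases that remove Frizzled receptors from the cell surface, RNF43 (TC1700012439.hg.1, chromosome 17) went from 7.83 to 7.06, a difference of -0.76, or 1.70-fold, and ZNRF3 from 6.66 to 6.39, a difference of -0.26.

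The secreted antagonists did not pass 2-fold in either direction. DKK1 (TC1000007641.hg.1, chromosome 10), which blocks LRP5 and LRP6, was at 11.12 on the control array and 11.11 on the pH 6.4 + DCA array, a difference of -0.0074. DKK3, a divergent family member that does not act like DKK1 on LRP6, went from 9.72 to 9.28, a difference of -0.44. DKK2 and DKK4 lay under the bound on both arrays, and so did all 4 SFRP genes, which encode secreted decoys with a Frizzled-like domain and are often silenced by promoter methylation in gastrointestinal tumors. The SFRP levels ranged from 3.23 to 4.75 in control cells and from 3.23 to 4.60 in exposed cells. Their differences lay between -0.15 and 0.54.

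DKK1 is itself a target of β-catenin, and its upstream sequence is shown for the LEF/TCF-type matches it holds. The motif was searched as CTTTGNN, where each N is A or T, on both strands, without regard to other motifs that share these letters. It occurred in 2 of 36 member windows, or 5.56%, and in 12.0% of all 35116 windows. A match is a run of letters and not evidence of binding. The 250 bases before the DKK1 start, on the plus strand at chr10:52314031-52314280 of GRCh38.p14, follow with the matches in capitals.
DKK1: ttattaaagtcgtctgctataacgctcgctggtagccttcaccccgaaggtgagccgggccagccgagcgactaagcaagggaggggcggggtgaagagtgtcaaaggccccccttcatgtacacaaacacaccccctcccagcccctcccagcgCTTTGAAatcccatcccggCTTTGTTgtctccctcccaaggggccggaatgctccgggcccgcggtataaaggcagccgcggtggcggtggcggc
The window held 2 matches. The other member window with a match belonged to TCF7L2.

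No central transduction gene of the set passed 2-fold. CTNNB1 (TC0300007136.hg.1, chromosome 3), which encodes β-catenin, went from 12.82 to 12.48, a difference of -0.34, and the scaffold gene AXIN1 from 8.41 to 8.61, a difference of 0.20. AXIN2, the feedback target most often used as a readout of β-catenin activity, was at 4.02 and 3.76, under the bound on both arrays. Of the nuclear factors, TCF7L2 (TC1000008942.hg.1, chromosome 10), the main TCF factor of the intestinal epithelium, went from 5.84 to 6.61, a difference of 0.78, or 1.71-fold. Its control level lay under the 99th percentile bound of 6.23. LEF1 went from 5.54 to 6.08, a difference of 0.54, with a control level just above the bound. Both of its levels lay under the 99th percentile bounds.

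Over the 20 members above the bound on both arrays, 2 were at least 1.5-fold higher, FZD1 and TCF7L2, and 3 were at least 1.5-fold lower, FZD6, RNF43 and WNT7B. These are 10.0% and 15.0% of the 20, where 11.8% and 14.3% of the 10772 genes above the bound on both arrays passed the same threshold upward and downward. The median difference of these members was 0.24, beside -0.016 over those genes, with 11 members above 0 and 9 below. Genes differing by 2-fold or more made up 3.02% upward and 5.25% downward of the same 10772, and of the 20 members 0 and 1. With 32 added on the linear scale, TCF7L2 differed by 0.54, short of 1.5-fold, while FZD1, FZD6, RNF43 and WNT7B stayed past it.

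**Figure D3:**
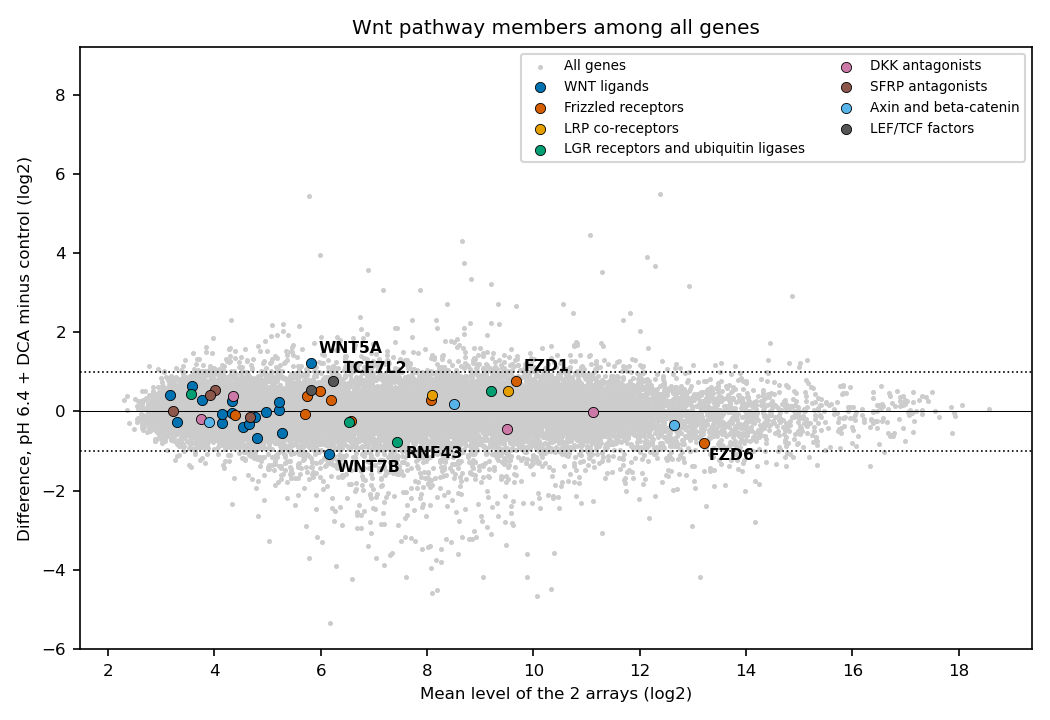
Log2 difference, pH 6.4 + DCA minus control (y axis), against the mean level of both arrays (x axis) for all genes (grey, genes of the Y chromosome left out) and for the 46 members by group, with dotted lines at 2-fold. Among the members, WNT5A at 1.22 and WNT7B at -1.08 lie beyond the lines, and the others lie inside the bulk of all genes.

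The rest of the pathway was described through 8 gene lists covering 149 measured genes that are not members. Of these, 2 were higher, 6 were lower and 141 were neither, and their median difference was 0.011. These are 1.34% and 4.03%, beside 2.52% and 4.12% of all genes, so the counts are no result about these lists, and the called genes are given as single values. In the list of Wnt release and R-spondins, 1 of 13 was lower and none was higher. This was WLS, the carrier that brings Wnt proteins to the cell surface, from 11.00 to 9.60, a difference of -1.40, or 2.63-fold. Of 17 other receptors and antagonists none passed 2-fold, and the receptor tyrosine kinase ROR1, which binds WNT5A, went from 10.46 to 9.87, while ROR2, which has the same ligand, lay under the bound on both arrays. The antagonist FRZB, at 5.09 on the control array, under the bound, and 5.99 on the other, was at least 1.57-fold higher.

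In the cytoplasmic list, 1 of 27 was higher and none was lower. USP34, a deubiquitinase that acts on Axin, went from 9.01 to 10.04, a difference of 1.03. The tankyrase TNKS, which marks Axin for degradation, had a difference of 0.94, and APC, the scaffold of the destruction complex, of 0.92. The kinase GSK3B, which phosphorylates β-catenin, had a difference of 0.55. The widest differences downward were those of CSNK2A1, at -0.69, and PPP2R1A, at -0.54. Of the 27 genes, 16 lay above 0, and the median of the list was 0.20. Of 21 nuclear cofactors and repressors none passed 2-fold, with a range from -0.60 for PYGO2 to 0.86 for the corepressor TLE1.

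Of 35 genes widely used as β-catenin/TCF targets, 5 of them members, 1 was higher, 2 were lower and 32 were neither, with a median of -0.032. NRCAM, a cell adhesion gene, went from 7.88 to 9.47, a difference of 1.59. BMP4, a ligand of the TGF-β superfamily, went from 8.48 to 5.40, which lay under the bound, and was at least 8.30-fold lower. BIRC5, which encodes survivin and serves cell division, went from 7.26 to 5.68, a difference of -1.58, or at least 1.84-fold with the bound at the 99th percentile. All 10 proliferation markers measured, such as MKI67 at -3.48, were lower, with differences from -4.49 to -2.43, beside 4.12% of all genes. Their part in the difference of BIRC5 was not tested. The broad targets MYC, at 0.39, CCND1, at -0.32, CD44, at -0.061, and SOX9, at -0.032, differed by less than 2-fold. Between 1.5-fold and 2-fold lay FOSL1 at -0.80, BAMBI at -0.78, RNF43 at -0.76, JUN at -0.67, L1CAM at -0.66 and, upward, ID2 at 0.74. Of the feedback and stem cell targets, RNF43 and ZNRF3 lay above the bound on both arrays, while AXIN2, NKD1, NOTUM, SP5, ASCL2 and LGR5 lay under it on both, with levels between 3.31 and 4.61.

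**Figure D4:**
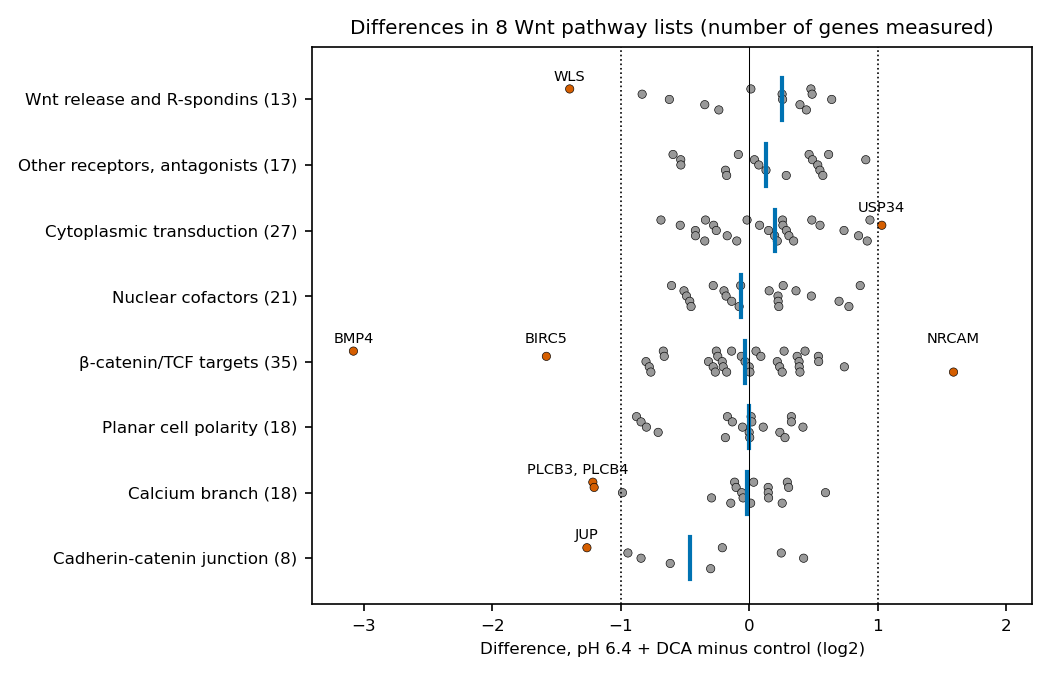
Log2 difference, pH 6.4 + DCA minus control (x axis), of each gene in 8 Wnt pathway lists, with the number of genes measured in brackets, the list median as a blue bar, dotted lines at 2-fold and genes beyond them in orange and named. Most genes lie between the lines, and BMP4 lies farthest from 0.

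The branches without β-catenin and the junctional pool of β-catenin were also examined. Of 18 planar cell polarity genes none passed 2-fold, although RHOA differed by -0.88 and VANGL2, a core polarity protein, by -0.84. In the calcium branch, 2 of 18 were lower and none was higher, the phospholipase C genes PLCB3, from 9.48 to 8.26, and PLCB4, from 6.98 to 5.78, or at least 1.52-fold for PLCB4 with the bound at the 99th percentile. Their relative PLCB1, at 6.36 and 5.38, was under the bound after exposure, and at least 1.92-fold lower. Of 8 genes of the cadherin-catenin junction, 1 was lower, JUP, which encodes plakoglobin, the closest relative of β-catenin, from 12.78 to 11.52, a difference of -1.26. E-cadherin, CDH1, differed by -0.84, P-cadherin, CDH3, by -0.94 and α-catenin, CTNNA1, by 0.42, and the median of the list was -0.46. Of 12 epithelial markers, 3 were lower, KRT14 at -2.88, EPCAM at -1.57 and KRT18 at -1.47, and 11 of 12 lay below 0. Of all genes, 4.12% were lower at 2-fold and 49.8% lay above 0. The summed log2 level of these markers was 18.81 on the control array and 18.08 on the other. Their part in the junction genes was not tested.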

How the data were processed

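The authors processed 1 Clariom S human array per condition in Transcriptome Analysis Console 4.0, per the labels, and deposited log2 expression levels in 1 table of 21448 rows. How background was corrected, probes were summarized and arrays were normalized is not given in the sources used here, nor is the genome build. That the scale is log2 was read from the range of the values. The platform annotation names 1 gene for 17709 rows and none for 3739, and the row with the highest mean was kept per gene. No member had more than 1 row.

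The members and gene lists were chosen with earlier results of these data known. Levels are given for members that differed by 2-fold, those above the bound on both arrays that differed by 1.5-fold, the core transduction genes, and pathway list genes past 2-fold; other named genes were chosen after their values were seen. A fold with 1 side under the bound was taken against the bound of that array or the gene's own level there, whichever was higher. The number of arrays limits the precision. Alternatives were centring, quantile normalization, removal of a lowess trend (span 0.3), a constant of 32 on the linear scale, leaving out rows under the 25th percentile, folds of 1.5 and 3, the mean over the rows of a gene, and other bounds. The 2-fold call was tried on simulated data with larger planted changes and little noise. The background bound, the list summaries and the promoter search were not simulated. Python 3.11.15, numpy 2.4.6, pandas 2.3.3, statsmodels 0.14.6 and matplotlib 3.10.9 were used.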

Additional observations from a re-analysis of the deposited data

How the results depend on the processing

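No paired analysis was possible because each condition had 1 array and the result comes from no test. Leaving out a replicate was not possible for the same reason. With centring, quantile normalization, removal of the trend with level, or dim rows left out, 1 member was higher and 1 lower, as in the report, and the counts of pathway genes outside the membership were 2 and 6. With 32 added on the linear scale, 0 members were higher and 0 lower, and 1 pathway gene was higher and 5 lower, since PLCB4 at -0.87 and USP34 at 0.99 then differed by under 2-fold. At 1.5-fold, 4 members were higher and 4 lower, with 14 and 23 pathway genes, and at 3-fold 0 and 0 members, with 1 and 1 pathway genes. The median difference of the members ranged from -0.018 to 0.049 over the normalizations and the constant of 32. It was not taken with dim rows left out. The mean over rows could not change it, since no member had more than 1 row. Of 46 members, 4 changed sign under a setting, each with a difference of 0.033 or less in size. With the bound at the 99th percentile of olfactory receptor genes, 13 members lay above it on both arrays, and of the called genes with 1 side under it, WNT5A, WNT7B, BIRC5 and PLCB4 fell short of 2-fold while BMP4, at least 4.29-fold lower, did not, and with the lower quartile of all rows as the bound, 14 lay above it on neither.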
